A study of Homo sapiens with 10 samples.

Results

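The response of HL60 cells to OR21 was measured as the difference between 2 arrays, one of HL60 cells treated with 500 nM OR21 and one of untreated HL60 cells, both labelled with a treatment period of 96 h. HL60 is a line of acute myeloid leukaemia with promyelocyte features, and both arrays held the parental line. The 2 arrays were taken by their titles from the 10 of the series, and 17687 named genes were described on them. The series studied OR21, also written OR-2100, as a hypomethylating agent and compared treated with untreated cells. Other arrays used for comparison were control and OR21-treated MDSL and SKM1 cells (100 nM), control and OR21-treated K562 cells (500 nM), and untreated HL60 derivatives labelled AZA resistant and OR21 resistant. Each condition had 1 array and no label speaks of separate cultures, so differences below are sizes without an error, a test or a replicate check. They describe these arrays. Where a gene has a pair of levels, the control array comes first and the treated array second.

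Hypomethylating agents lower the methylation of cytosine in CG dinucleotides as DNA is copied, because the maintenance methyltransferase DNMT1 no longer restores it. Genes kept silent by methylated promoters, germ cell genes among them, can then be transcribed. HL60 cells are also known for their capacity to mature in culture toward granulocytes or monocytes, a course marked by less MYC, fewer primary granule transcripts and more surface receptors, S100 proteins and oxidase subunits. Methylation itself was not measured here.

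The promoters of 4 genes that were at or under the noise of negative control probe sets on the control array and well above it on the treated array show how different such genes were in CG content. They were picked after their values were seen, to set the germ cell genes DAZL, an RNA-binding protein, and GCNA, a germ cell nuclear protein, beside the myeloid genes S100A12, a secreted calcium-binding protein, and VNN2, a pantetheinase anchored on neutrophils. Each sequence is the 250 bases before the annotated start in RefSeq's GRCh38.p14 table, 5′ to 3′ on the gene's own strand, with every CG in capitals. DAZL lies at chr3:16605424-16605673 on the minus strand, GCNA at chrX:71578187-71578436 on the plus strand, S100A12 at chr1:153375622-153375871 and VNN2 at chr6:132763456-132763705, both on the minus strand.
DAZL: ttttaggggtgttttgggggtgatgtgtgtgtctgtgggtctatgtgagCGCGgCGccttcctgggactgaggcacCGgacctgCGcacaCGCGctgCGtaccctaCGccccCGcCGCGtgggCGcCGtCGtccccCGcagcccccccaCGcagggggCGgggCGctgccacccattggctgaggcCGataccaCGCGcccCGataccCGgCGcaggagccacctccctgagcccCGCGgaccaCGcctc
GCNA: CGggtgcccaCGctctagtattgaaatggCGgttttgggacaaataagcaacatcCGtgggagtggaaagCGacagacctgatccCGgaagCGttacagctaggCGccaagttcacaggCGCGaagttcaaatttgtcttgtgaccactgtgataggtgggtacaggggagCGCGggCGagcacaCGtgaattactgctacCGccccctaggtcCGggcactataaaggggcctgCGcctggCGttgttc
S100A12: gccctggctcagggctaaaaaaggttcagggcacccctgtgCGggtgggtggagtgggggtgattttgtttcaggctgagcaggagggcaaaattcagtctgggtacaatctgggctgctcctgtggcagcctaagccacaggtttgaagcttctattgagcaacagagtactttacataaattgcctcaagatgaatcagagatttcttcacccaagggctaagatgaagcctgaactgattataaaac
VNN2: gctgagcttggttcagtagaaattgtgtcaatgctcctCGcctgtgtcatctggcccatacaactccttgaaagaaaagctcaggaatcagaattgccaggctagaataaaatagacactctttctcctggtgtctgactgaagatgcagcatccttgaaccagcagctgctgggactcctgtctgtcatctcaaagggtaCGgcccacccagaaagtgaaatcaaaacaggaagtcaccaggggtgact
The stretch shown holds 28 CG in DAZL and 18 in GCNA, against 1 in S100A12 and 2 in VNN2. DAZL has 2 annotated windows, of which the first is shown.

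With OR21, 1802 genes (10.2% of those measured) were higher by 2-fold or more, and 1962 (11.1%) were lower by as much. A difference of 4-fold was reached by 654 genes upward (3.70%) and 431 downward (2.44%). Many of these genes were dim. Of the 612 negative control probe sets 13.6% were 2-fold or more above their control value and 11.9% as far below it, and 4.08% and 2.45% reached 4-fold. Differences of 2-fold were thus as frequent among negative control probe sets as among named genes. The text gives weight to levels above the limit that 95% of negative control probe sets stayed under, 7.97 log2 on the control and 8.44 on the treated array. Above the limit on at least 1 array were 7419 genes, and at 2-fold 1072 of them were higher and 1607 lower. A group of 393 genes, 2.22% of all, passed from at or under the limit to above it and was at least 2-fold higher. For a gene at or under the limit on 1 array the difference to that array's limit is given as a minimum. Such minima hold as deposited and not under the other scalings. No HL60 difference is given for genes at or under it on both. Counts and medians of lists use the differences as measured, dim members included. Every 2-fold count of a list below stands beside the 10.2% higher and 11.1% lower of all genes.

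The treated array stood apart in its hybridisation spikes. These spikes, which are added to each sample at a fixed amount, averaged 11.71 log2 against 10.94 on the control array and 10.85 to 11.10 on the other 9 arrays, and all 4 were higher by 0.70 to 0.88. The polyadenylated spikes, added to the RNA before labelling, averaged 8.06 against 7.34 on the control array and 6.86 to 7.51 on the other 9. The ERCC spikes differed from the control array by a median of -0.15 and the positive control probe sets by -0.33. The ERCC medians, 5.01 on the control and 4.72 on the treated array, were under the background probe medians of 5.41 and 5.43. Their median thus reads background more than spike. The median of the positive control sets, 12.81, lay within the 12.39 to 13.28 of the other arrays. The median difference of all genes was -0.05 as deposited, -0.07 under quantile normalization and -0.22 under median centring, in which every array is set to the same median. It was -0.81 when arrays were scaled to the spikes and 0.37 when they were centred on the positive controls. Of the called genes, 47.9% were higher as deposited and 48.6% under quantile normalization. Median centring gave 36.5%, spike scaling 10.6% and positive control centring 75.8%. Which scaling is right cannot be told from 2 arrays, so a list is called higher or lower below with each scaling that turns its median, and gaps between list medians are described within 1 scaling.

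**Figure D1:**
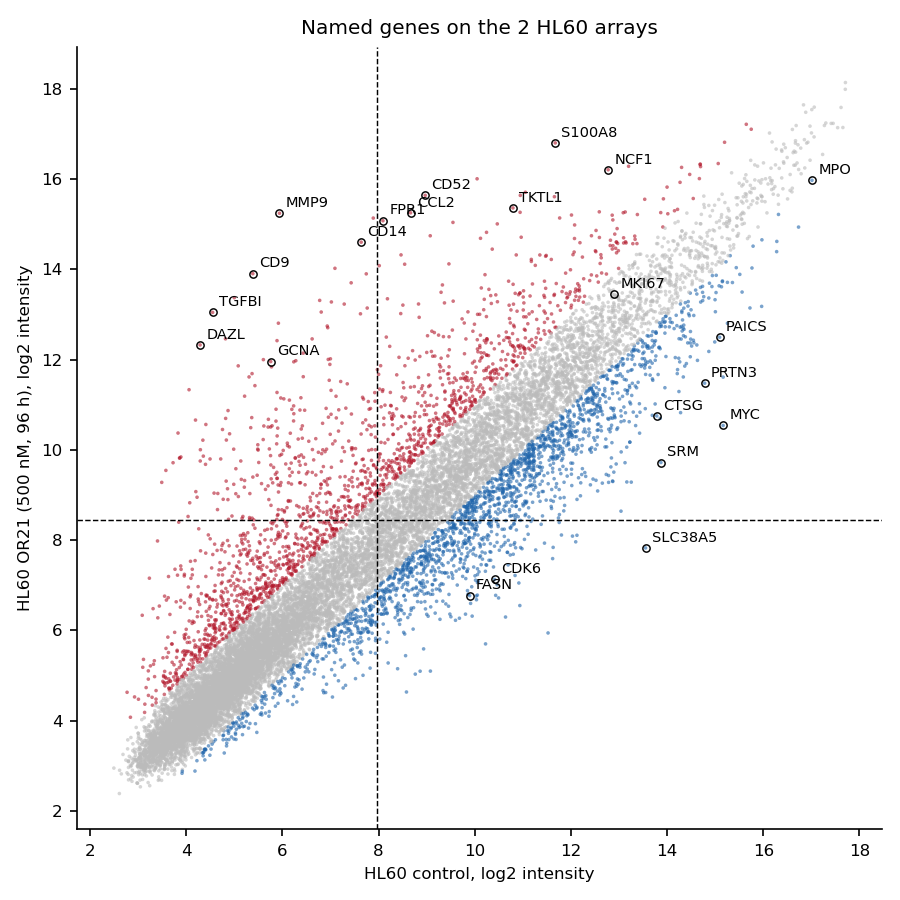
Log2 intensity of the named genes, with those of chromosome Y and XIST left out, on the control (x axis) and OR21-treated (y axis) HL60 arrays. Red points are at least 2-fold higher, blue points at least 2-fold lower, dashed lines mark the limits of negative control probe sets (7.97 and 8.44), and named genes are circled. MMP9, CD9, TGFBI and DAZL stand far above the diagonal from control values inside the noise, while MYC, SRM and SLC38A5 lie far below it.

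The largest difference of a named gene was that of MMP9, a matrix metalloprotease stored in neutrophil granules, at 5.94 log2 in control and 15.25 in treated cells, at least 7.28 log2 higher. CD9, a tetraspanin of the cell surface, was at 5.38 and 13.91, at least 5.94 higher. TGFBI, a secreted adhesion protein of macrophages, stood at 4.55 and 13.05, at least 5.08 higher. Of the 15 largest higher differences, 12 had a control value at or under the limit. The exceptions were FPR1, CD52 and CCL2. FPR1, a receptor for bacterial formyl peptides, was at 8.09 in control and 15.08 in treated cells, 6.99 higher. CD52, a small anchored glycoprotein of leukocytes, differed by 6.67, from 8.97 to 15.64, and CCL2, a monocyte chemoattractant, by 6.59, from 8.66 to 15.25. The others of the 15 were FAM9C, DAZL, VNN2, S100A12, the immediate early gene IER3, the monocyte co-receptor CD14, the complement receptor CR1, the complement component C3 and the adhesion receptor ADGRE3.

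At the other end stood SLC38A5, a glutamine and serine transporter, at 13.55 log2 in control and 7.83 in treated cells, at least 5.11 lower. GAL, which encodes the neuropeptide galanin, followed with 11.52 and 5.95, at least 3.09 lower. The growth regulator MYC was above the limit on both arrays, at 15.17 and 10.54, a difference of -4.62. SRM, the enzyme that makes spermidine, differed by -4.15, from 13.87 to 9.72. The mitochondrial transporter ABCB10 differed by -4.40, from 13.04 to 8.64. SCD, the desaturase of fatty acids, stood at 12.10 and 7.96, at least 3.66 lower, and the mitochondrial chaperone TRAP1 at 12.13 and 8.11, at least 3.69 lower. The remaining 8 of the 15 largest lower differences were LAMP5, GALNT14, BDH1, NPM3, DNAJC12, TIMM13, SLC39A14 and CDCA7.

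Granule genes were described by the stage of maturation at which they are made. The primary granule list, largely of proteins made by promyelocytes, had a median difference of -0.41 log2 over 16 members, which turned to 0.01 with positive control centring. In this list 5 members were 2-fold or more lower, and 2 were higher by that much. The serine proteases PRTN3 and CTSG stood at 14.78 and 13.78 in control and at 11.48 and 10.75 in treated cells, differences of -3.30 and -3.03. DEFA4, a defensin, differed by -2.79 and the protease-like AZU1 by -2.52. MPO, myeloperoxidase, which marks HL60 as promyelocytic, was 17.01 and 15.97, a difference of -1.04. Not every member of the list was lower. BPI, which binds bacterial endotoxin, was 9.56 and 11.26, 1.70 higher. SERPINB1, listed as an inhibitor of these proteases, was 1.45 higher. LYZ, lysozyme, differed by 0.43 and RNASE2, an eosinophil ribonuclease, by 0.68. DEFA1 and DEFA3, nearly identical defensins whose signals cannot be told apart, differed by -0.36 and -0.32.

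Genes of the granules formed later were measured in 17 members with a median of 0.63 log2, which spike scaling turned to -0.14. Of these, 8 were at least 2-fold higher and 0 lower, against 10.2% and 11.1% of all genes. HP, haptoglobin, was at 10.05 and 16.01, 5.96 higher, though its probes may also read the related HPR. TCN1, which carries vitamin B12, was at 4.41 and 10.56, at least 2.59 higher. CHI3L1, a chitinase-like lectin, differed by 3.09. Several defining secondary granule genes were dim. The antimicrobial genes LTF, LCN2 and CAMP, and the collagenase MMP8, were at or under the limit on both arrays. MMP9, described above, belongs to this list and had the list's largest difference, at least 7.28 higher. MMP9, HP, TCN1 and CHI3L1 were thus higher, while LTF, LCN2, CAMP and MMP8 were not above the limit.

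Neutrophil surface and secretory genes had a median of 2.80 log2 over 16 members, and 13 of them were at least 2-fold higher, 9 of these above the limit on at least 1 array. FPR2, a formyl peptide receptor related to FPR1, was at 10.94 and 15.27, 4.32 higher. The complement anaphylatoxin receptor C5AR1 was at 5.21 and 11.19, at least 3.22 higher, and the activating receptor TREM1 at 6.94 and 12.71, at least 4.74 higher. CSF3R, the receptor for granulocyte colony-stimulating factor, was at 8.49 and 11.17, 2.69 higher. ITGAM, the CD11b integrin chain used as a marker of HL60 maturation, was at 5.98 and 9.90, at least 1.93 higher. FCGR3B and FCGR3A, nearly identical Fc receptors read as 1 signal here, were both under the limit in control cells, at 5.60 and 5.31, and at least 4.03 and 3.65 higher in treated cells. The chemokine receptor CXCR1 was under the limit on both arrays.

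Monocyte and macrophage genes were higher too, with a median of 2.20 log2 over 23 members and 15 of them at least 2-fold higher. CD14, the endotoxin co-receptor of monocytes, was at 7.64 and 14.60, at least 6.63 higher. CD86, a ligand that costimulates T cells, was at 6.43 and 12.15, at least 4.18 higher. CLEC7A, the receptor for fungal glucans, was at 8.46 and 13.02, 4.56 higher, and CD68, a lysosomal glycoprotein of macrophages, differed by 2.20. CSF1R, the receptor for macrophage colony-stimulating factor, was at 6.92 and 10.02, at least 2.05 higher. The mannose receptor MRC1 and the scavenger receptor CD163, made by mature macrophages, were at or under the limit on both arrays. Neutrophil and monocyte genes were thus higher on the same array, and whether in the same cells cannot be told from RNA of whole cultures. In such RNA, more cells of a kind and more RNA per cell cannot be told apart.

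The phagocyte oxidase, which makes superoxide, was uneven. Its cytosolic subunit NCF1 was at 12.77 and 16.21, 3.44 higher, its membrane subunit CYBB at 14.27 and 15.93, 1.66 higher, and NCF4 1.16 higher. CYBA differed by less than 1 log2 unit and RAC2 by -0.16. Of 8 S100 genes, 7 were above the limit on at least 1 array, and these were 1.34 to 7.28 higher as measured. The median of all 8 was 4.38, with S100P, under the limit on both arrays, included. S100A8 and S100A9, the subunits of calprotectin, were at 11.67 and 10.95 in control and at 16.80 and 15.64 in treated cells, 5.13 and 4.69 higher. S100A12 was at 4.06 and 11.33, at least 3.37 higher. S100A4, S100A6 and S100A10, which are not specific to phagocytes, differed by 4.70, 4.06 and 3.96. Lysosomal genes had a median of 1.20 over 21 members with 12 at least 2-fold higher and 2 lower. The proteases CTSZ, CTSB and CTSD differed by 3.03, 2.34 and 2.23, whereas LIPA, the acid lipase, differed by -1.30.

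**Figure D2:**
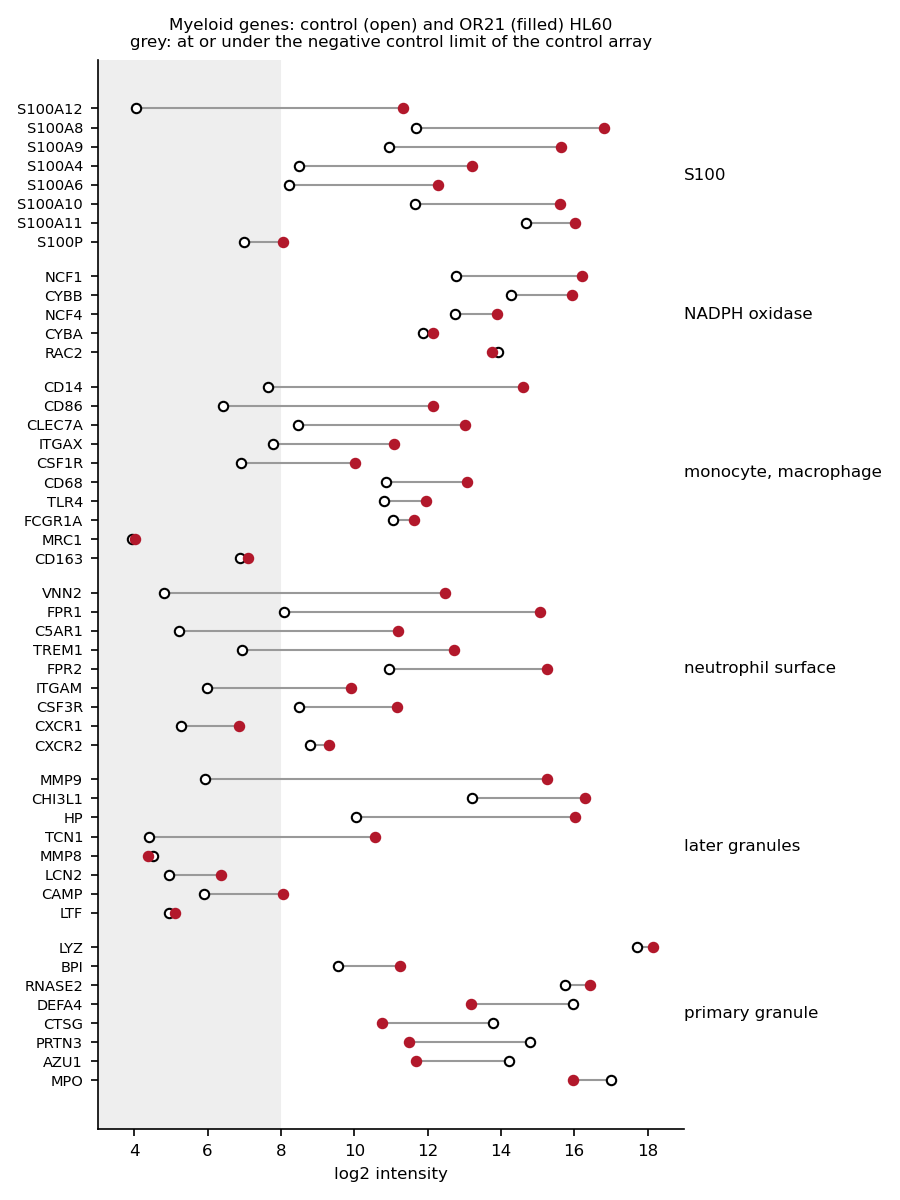
Log2 intensity (x axis) of myeloid genes in control (open circles) and OR21-treated (filled circles) HL60 cells, 1 array each, grouped by role. Grey marks values at or under the limit of negative control probe sets on the control array (7.97). S100, surface and monocyte genes lie to the right in treated cells, PRTN3, CTSG, DEFA4 and AZU1 to the left, and LTF, MMP8 and MRC1 stay in the grey zone.

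Transcription factors of the myeloid lineage differed in both directions, with a median of 0.17 log2 over 21 members that turned to just under 0 with median centring and to -0.59 with spike scaling. MYB, which maintains progenitors, was at 15.15 and 13.74, a difference of -1.41, and IRF8, a factor of monocyte and dendritic cells, differed by -1.68. The repressor GFI1 differed by -0.98. At 2-fold, 7 members were higher, 3 lower and 11 neither. Among the last were SPI1, CEBPA, CEBPE and CEBPB, above the limit on both arrays, with differences of -0.08, -0.11, -0.12 and 0.32. EGR1, an immediate early factor linked to monocyte development, was 8.47 and 10.52, 2.05 higher. ID2, an inhibitor of helix-loop-helix factors, was 11.18 and 14.18, 3.00 higher. GATA2, a progenitor factor, was at 6.15 and 9.43, at least 1.46 higher. ID1 and ID3 were at or under the limit on both arrays.

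Genes of inflammation were higher as well. Chemokines had a median of 1.43 log2 over 22 members, 14 of them at least 2-fold higher and 8 of these above the limit. CCL5, which attracts T cells and monocytes, was at 9.55 and 15.04, 5.50 higher, and CCL20 was at 7.28 and 13.23, at least 5.26 higher. CXCL8, the main neutrophil attractant, was at 12.87 and 14.53, 1.65 higher. Among cytokines (24 members, median 0.49, turned to -0.27 by spike scaling), IL1B was at 7.43 and 13.70, at least 5.73 higher, and IL32 at 6.95 and 12.01, at least 4.04 higher. TNFSF13B, the B cell survival factor, was lower by at least 2.37, from 10.81 to 8.37.

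The NF-kB feedback list, genes that this factor induces and that restrain it, had a median of 1.05 log2 with 8 of 13 members at least 2-fold higher. NFKBIA, its inhibitor, was at 9.53 and 12.66, 3.12 higher, and TNFAIP3 at 10.71 and 13.21, 2.49 higher. IER3 was at 7.89 and 15.14, at least 7.17 higher. AP-1 and immediate early genes had a median of 1.95, with 12 of 15 at least 2-fold higher. JUN was at 6.20 and 9.51, at least 1.54 higher, and the phosphatase DUSP6 at 10.84 and 13.47, 2.63 higher. Lipid mediator genes had a median of 1.36, with 9 of 13 at least 2-fold higher. PLA2G7, which inactivates platelet-activating factor, was at 5.37 and 11.69, at least 3.72 higher, and ALOX5, the lipoxygenase that starts leukotriene synthesis, at 7.17 and 10.89, at least 2.92 higher.

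Interferon-stimulated genes were higher by less. Their median was 0.84 log2 over 39 members, 0.08 under spike scaling, with 17 at least 2-fold higher and 12 of these above the limit. IFITM1 and IFITM3, membrane proteins that restrict virus entry, were at 9.37 and 10.21 in control and 13.26 and 13.88 in treated cells, 3.89 and 3.67 higher. IFI6 was at 7.92 and 11.27, at least 3.30 higher, and the interferon signal transducer IRF9 at 6.82 and 9.92, at least 1.95 higher. Classical members were mixed: IFIT1, IFIT3 and IFI27 were at or under the limit. IFIT2 and OAS1 stood close to it in treated cells, at 8.46 and 8.66 against the treated limit of 8.44. Measured to the control limit of 7.97 they were at least 0.49 and 0.69 higher as deposited, sizes that spike scaling would take under 0. IFI16, a DNA sensor, was at 7.62 and 13.02, at least 5.05 higher, in a list of sensors whose median was 0.40 and turned to -0.36 under spike scaling. MHC class I genes had a median of 0.38 over 14 members, turned to -0.38 by spike scaling. HLA-E, a ligand of natural killer receptors, differed by 2.54. Of 10 MHC class II genes, 1 was above the limit on either array.

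Complement genes had a median of 0.47 log2 over 21 members, turned to -0.30 by spike scaling, yet 9 were at least 2-fold higher and 0 lower. C3, the central component, was at 5.92 and 12.81, at least 4.84 higher, and CR1, the receptor for its fragments, at 7.09 and 14.02, at least 6.06 higher. Proteases of the matrix and their inhibitors had a median of 1.66. TIMP1, an inhibitor of metalloproteases, was at 11.05 and 15.71, 4.66 higher, and SERPINA1, the inhibitor of neutrophil elastase, at 9.07 and 14.75, 5.67 higher. Integrins and adhesion genes had a median of 1.25, with 12 of 21 at least 2-fold higher. PECAM1, an adhesion molecule of leukocytes and endothelium, was at 10.24 and 14.82, 4.58 higher, CD44 3.67 higher and ITGB2 2.82 higher. ITGA4, which pairs in the receptor for VCAM-1, went the other way, from 10.90 to 8.52, a difference of -2.38.

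Cell cycle genes did not share a direction. The list of cyclins, kinases and their inhibitors had a median of -0.03 log2 over 23 members, which turned positive under quantile normalization (0.06) and positive control centring (0.39). CDK6 and CDK4, the kinases of the G1 phase, stood apart: CDK6 was at 10.41 and 7.13, at least 1.97 lower, and CDK4 at 13.23 and 10.17, a difference of -3.05. CDKN1A, which encodes the inhibitor p21, was at 5.51 and 9.72, at least 1.75 higher, and CDKN1B, which encodes p27, differed by 0.97. The cyclins split. CCND3 was 1.41 higher, CCNE1 was lower by at least 1.44, from 9.88 to 8.19, and the mitotic cyclins CCNB1 and CCNB2 differed by 0.11 and 0.08. CDKN2A and CDKN2B, inhibitors often silenced by methylation in leukaemia, were at or under the limit on both arrays, at 6.80 and 6.73 in control and 6.04 and 7.23 in treated cells.

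DNA replication genes were lower while mitosis genes were not. All 30 replication genes had a negative difference, with a median of -1.19 log2 as deposited and -0.76 under the scaling most favourable to higher values, and 19 were at least 2-fold lower. The helicase subunits MCM6, MCM2 and MCM3 differed by -1.93, -1.55 and -1.46, and PCNA, the sliding clamp, was at 14.74 and 13.74, a difference of -0.99. The 24 mitosis genes had a median of 0.11, which turned to -0.06 under median centring and -0.65 under spike scaling, and at 2-fold 1 was higher and 2 were lower. MKI67, a marker of cycling cells, was at 12.90 and 13.44, TOP2A, a topoisomerase of mitotic chromosomes, at 13.81 and 14.71, and the kinase PLK1 at 14.08 and 14.06. The lower members were BIRC5, or survivin, at -1.15 and the checkpoint protein MAD2L1 at -1.32. Homologous recombination and Fanconi genes had a median of -1.06, with 6 of 12 at least 2-fold lower and XRCC2 at -1.78. Replication histone genes had a median of 0.11, turned to -0.06 by median centring and -0.65 by spike scaling.

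Genes of cell survival and of the p53 response went both ways. The p53 target list had a median of 0.33 log2, turned to -0.43 by spike scaling. At 2-fold 6 of 23 were higher, 4 of these above the limit, and 2 lower, against 10.2% and 11.1% of all genes. TNFRSF10B, a death receptor, was at 9.30 and 12.03, 2.73 higher, whereas TRIAP1, a mitochondrial survival protein, was at 9.42 and 7.27, at least 0.98 lower. In the BCL2 family (median 0.20, turned to -0.56 by spike scaling), BCL2 itself was at 10.06 and 7.37, at least 1.62 lower. The protective members BCL2A1 and MCL1 were higher, BCL2A1 by 4.09, from 10.36 to 14.45, and MCL1 by 1.71. Of the other protective members BCL2L2 differed by 1.00, just under 2-fold before rounding, and BCL2L1 and BCL2L10 were at or under the limit on both arrays. The death-promoting BCL2L11 was 1.27 and PMAIP1 1.48 higher.

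**Figure D3:**
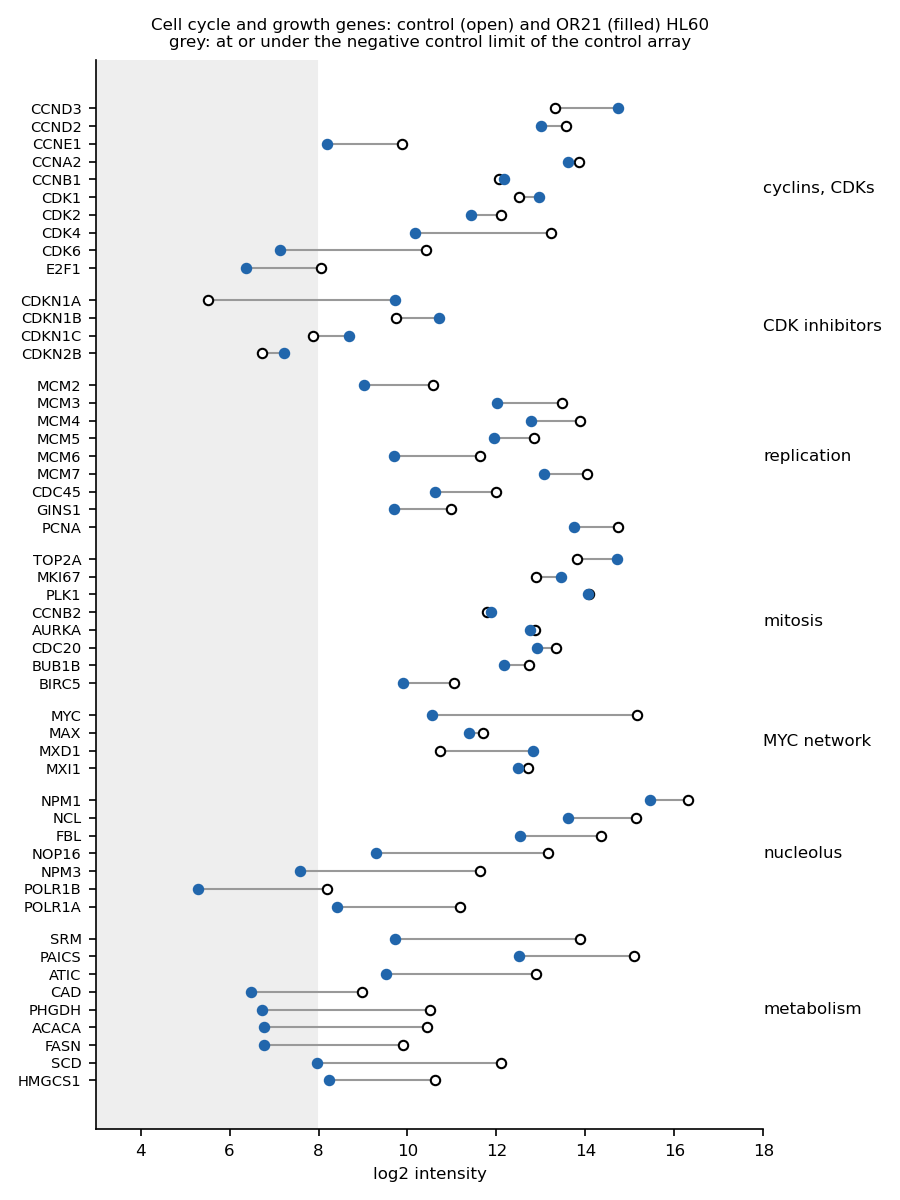
Log2 intensity (x axis) of cell cycle and growth genes in control (open circles) and OR21-treated (filled circles) HL60 cells, 1 array each. Grey marks values at or under the limit of negative control probe sets on the control array (7.97). Replication, nucleolar and metabolic genes lie to the left in treated cells, mitosis genes lie near their control values, and CDKN1A lies to the right.

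The lists that were lowest belonged to growth. In the MYC network, MYC differed by -4.62 log2, its partner MAX differed by under 1 unit, and MXD1, which opposes MYC, was at 10.74 and 12.82, 2.08 higher. Ribosome biogenesis genes, which process and assemble ribosomal RNA in the nucleolus, had the lowest median of the lists, -2.56 over 28 members, with 26 at least 2-fold lower and 20 at least 4-fold lower. NOP16 was at 13.16 and 9.29, a difference of -3.87, and NPM3 was at 11.62 and 7.59, at least 3.18 lower. The abundant nucleolar proteins NCL and FBL differed by -1.51 and -1.81. Subunits of RNA polymerases I and III, which transcribe ribosomal and transfer RNA, had a median of -1.84, with 13 of 19 at least 2-fold lower. POLR1E differed by -2.63 and POLR1A was at 11.17 and 8.42, at least 2.73 lower. Cytosolic ribosomal proteins, in contrast, differed by -0.46 to 0.46, with a median of -0.07 that turned to 0.36 with positive control centring, and 0 of 16 reached 2-fold. Factors that build ribosomes and the proteins they contain thus differed by 2.49 log2 in their medians on the same arrays, a gap that scaling by 1 constant per array leaves as it is.

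Mitochondrial gene lists were lower as well, ribosomal proteins included. Mitochondrial ribosomal proteins had a median of -1.55 log2, with 28 of 32 at least 2-fold lower and MRPS2, at 13.35 and 10.54, among the lowest at -2.81. Genes of mitochondrial DNA and protein import had a median of -1.59, with 22 of 26 at least 2-fold lower. TIMM13, an import chaperone, was at 13.25 and 9.29, a difference of -3.97, and TWNK, the helicase of mitochondrial DNA, was at 10.05 and 6.78, at least 1.62 lower. Respiratory chain subunits were lower by less, with a median of -0.83 and 11 of 32 at least 2-fold lower. Aminoacyl-tRNA synthetases had a median of -1.37, with 11 of 16 at least 2-fold lower and FARSB at -2.58. The mitochondrial chaperones HSPE1 and HSPD1 differed by -2.65 and -2.58. Proteasome subunits had a median of -0.71, with 5 of 22 at least 2-fold lower. None of these medians turned under a scaling.

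Pathways that feed nucleic acid and lipid synthesis had negative medians. Purine and pyrimidine synthesis genes had a median of -2.15 log2, with 14 of 18 at least 2-fold lower. ATIC, which closes the purine ring, was at 12.89 and 9.51, a difference of -3.38, and PAICS, of the same pathway, at 15.09 and 12.50, -2.59. Serine, glycine and folate genes had a median of -0.80. PHGDH, the first enzyme of serine synthesis, was at 10.49 and 6.72, at least 2.06 lower, and MTHFD1L, of mitochondrial folate metabolism, differed by -3.21. Cholesterol synthesis genes had a median of -1.29, with 12 of 19 at least 2-fold lower. MSMO1, a sterol oxidase, was at 13.30 and 10.84, a difference of -2.46. Fatty acid synthesis genes had a median of -0.62, with 6 of 12 at least 2-fold lower and 1 higher. The first enzymes of the pathway, ACACA and FASN, were at 10.43 and 9.89 in control and at 6.78 and 6.77 in treated cells, at least 2.00 and 1.45 lower. ACSL4, which activates long fatty acids, went the other way at 8.96 and 11.27, 2.31 higher, and ACSL1 and ME1 differed by 0.76 and 0.09. None of these list medians turned under a scaling.

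Lipid storage and export genes were higher, with a median of 1.61 log2 and 8 of 13 at least 2-fold higher. PLIN2, which coats lipid droplets, was at 9.46 and 14.12, 4.66 higher. The cholesterol exporter ABCA1 was at 5.85 and 9.46, at least 1.49 higher, and APOC1, an apolipoprotein of macrophages, at 4.29 and 10.01, at least 2.04 higher. FABP5, a fatty acid carrier, was lower, at 12.24 and 9.59, a difference of -2.65. In glycolysis, 8 of 26 genes were lower by 2-fold or more and 4 higher, with a median of -0.39 that turned to 0.03 with positive control centring. LDHA and GPI differed by -1.80 and -1.87, while the glucose transporter SLC2A3 was at 10.97 and 14.71, 3.75 higher.

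Smaller families also stood out. Metallothioneins, which bind metal ions and share much of their sequence so that members cannot be fully told apart, had a median of 1.64 log2 with 8 of 9 at least 2-fold higher. MT1F was at 11.26 and 14.09, 2.83 higher, and MT2A at 15.65 and 17.22, 1.57 higher. YPEL3, a member of a small conserved zinc-binding family linked to growth arrest, was at 6.62 and 12.46, at least 4.49 higher, and YPEL5 was 3.17 higher. The autophagy list had a median of 0.70, which spike scaling turned to -0.06, and 6 of 15 members were at least 2-fold higher. GABARAPL1, of the autophagosome membrane, was 3.42 and SQSTM1, a cargo receptor, 2.28 higher. SAT1, which breaks down polyamines, was at 10.86 and 14.32, 3.46 higher, opposite to SRM. HMOX1, which degrades haem, was at 4.86 and 9.14, at least 1.17 higher.

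**Figure D4:**
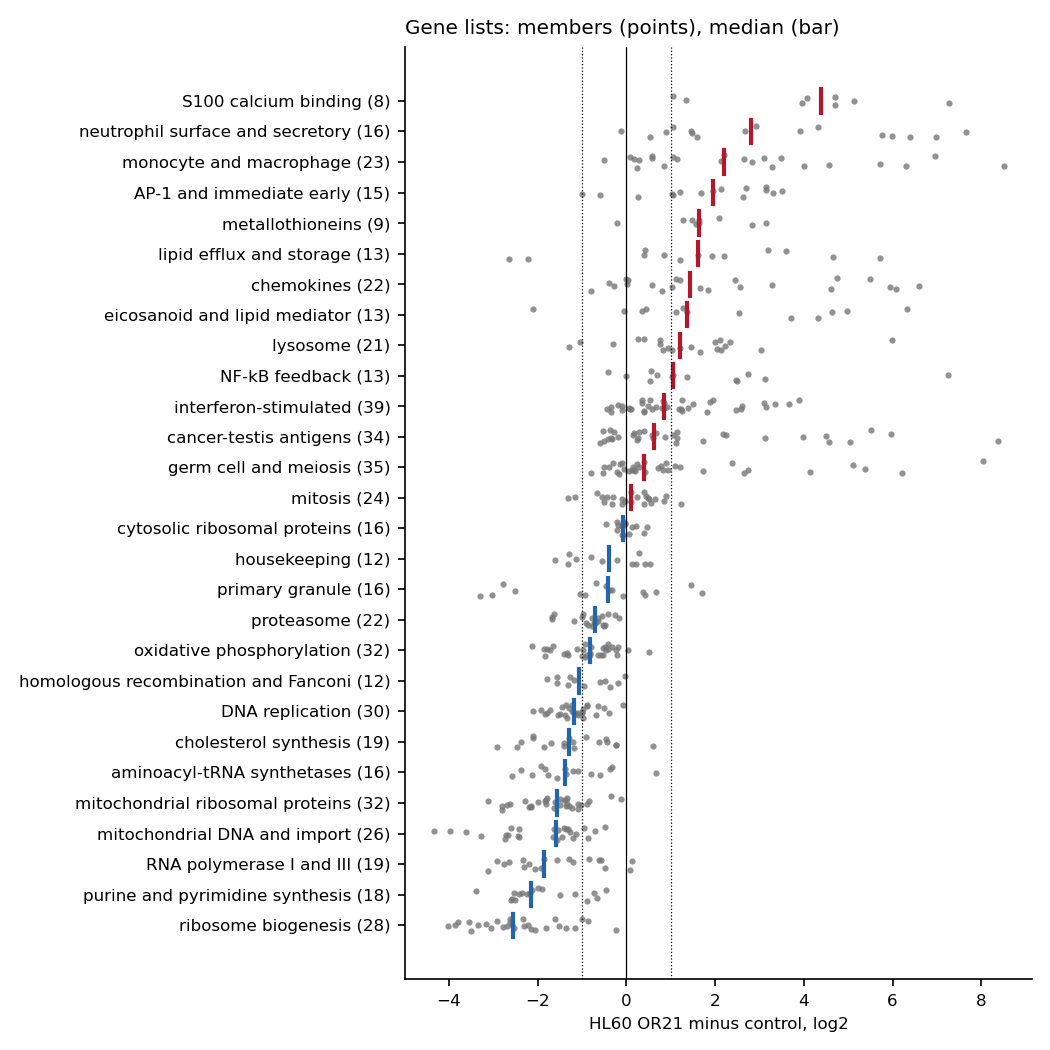
Difference between OR21-treated and control HL60 cells (x axis, log2) for members of 28 gene lists (y axis, number measured in brackets), with points for genes and bars for medians. Dotted lines mark 2-fold. Medians run from -2.56 for ribosome biogenesis to 4.38 for S100 genes, cytosolic ribosomal proteins sit close to 0, and a few germ cell and cancer-testis genes reach far above their list's median.

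Germ cell and cancer-testis genes were higher in a minority of their members. Of 35 germ cell and meiosis genes, 11 were higher by 2-fold or more and 0 lower, 5 of these above the limit, and the median of 0.39 log2 turned to -0.37 under spike scaling. DAZL was at 4.29 and 12.33, at least 4.36 higher, GCNA at 5.76 and 11.96, at least 3.99 higher, and the meiotic chromosome protein HORMAD1 at 6.03 and 11.13, at least 3.16 higher. MAEL, which acts in transposon silencing in the germ line, was at 4.83 and 10.22, at least 2.25 higher. Of 34 cancer-testis genes, 15 were at least 2-fold higher and 8 of these above the limit, and the median of 0.63 turned to -0.13 under spike scaling. FAM9C was at 5.00 and 13.37, at least 5.41 higher. TKTL1, a transketolase-like gene, was already at 10.79 in control cells and reached 15.36, 4.57 higher. CT45A members, nearly identical copies that cannot be told apart, reached 9.82 to 10.02 in the 3 named here, CT45A8, CT45A3 and CT45A1, from 3.86 to 4.99. MAGEA4 and GAGE1 were at or under the limit. In a list of 22 genes reported as methylated in myeloid neoplasms, 4 were at least 2-fold higher, 1 lower and 17 neither. Over all genes 10.2% were higher and 11.1% lower by as much. Of the 4, 2 were above the limit. The list median of 0.04 turned to -0.13 by median centring and -0.73 by spike scaling. CTNNA1, which encodes alpha-catenin, was at 6.02 and 9.99, at least 2.02 higher, and DAPK1, a death-associated kinase, at 8.81 and 11.03, 2.22 higher.

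Genes of the methylation machinery went both ways, with a median of -0.35 log2 that turned to 0.07 with positive control centring. DNMT1 was at 11.05 and 9.98, a difference of -1.07, and its partner UHRF1 at 11.56 and 10.69, -0.87. CDCA7, a chromatin remodelling cofactor of methylation upkeep, was at 12.03 and 8.09, at least 3.59 lower. The dioxygenase TET2, which oxidises methylcytosine, was 1.15 higher, while DNMT3A and DNMT3B were at or under the limit on both arrays. Among genes that handle nucleoside analogues, CDA, the cytidine deaminase that the series title says OR-2100 resists, was at 7.73 and 10.67, at least 2.70 higher. DCK, the kinase that activates deoxycytidine analogues, was at 11.66 and 11.32, and the transporter SLC29A1 at 12.40 and 11.51. SAMHD1, which hydrolyses nucleotides, was 1.77 higher, and SLC29A2 was at 9.60 and 6.23, at least 1.16 lower.

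Promoter CG content was counted in the 300 bases from 250 before to 50 after the annotated start, on both strands alike, for the 14250 named genes with a window in the table. The motif is CG alone. All genes had a median of 22 CG, and genes above the limit in control cells had 26. The 393 genes that passed from at or under the limit to above it had a median of 19 (301 with a window), against 16 for the other genes at or under the limit in control cells. Among them, 22.6% held at most 5 CG and 48.5% at least 20, against 29.1% and 44.6% of the other dim genes. The myeloid and germ cell genes among these 393 differed from each other. The 24 with a window from the granule, surface, monocyte, S100, chemokine and cytokine lists had a median of 3 CG, and the 9 from the germ cell and cancer-testis lists 21. The whole lists, dim and bright genes together, had medians of 4 and 17.5. On chromosome X lay 24 of the 393, or 6.11%, against 4.01% of all genes, and 9 of these 24 were CT45A copies.

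The genes called in HL60 were set beside the responses of MDSL, SKM1 and K562, each against its own control. Doses were 500 nM in HL60 and K562 and 100 nM in MDSL and SKM1, and no dose was given in all 4, so the counts are set side by side. SKM1 held 690 of the higher HL60 genes, 38.3% of those in HL60 and 55.0% of the 1255 in SKM1 (7.10% of all genes). MDSL held 451, 25.0% of those in HL60 and 38.5% of its own 1170 (6.62%). K562, at the dose of HL60, held 288, 16.0% and 32.3% of its own 893 (5.05%). Of the lower HL60 genes, 380 were among the 791 lower genes of SKM1 (4.47% of all genes), 19.4% of those in HL60 and 48.0% of those in SKM1. MDSL shared 331 of its 864 (4.88%), 16.9% of the HL60 list and 38.3% of its own, and K562 shared 288 of its 682 (3.86%), 14.7% and 42.2%. In HL60 and in none of the other 3 lines, 849 genes (47.1% of those in HL60) passed 2-fold upward and 1234 (62.9%) downward. How many of all genes passed it in none of the other 3 lines was not counted. These shares thus have no baseline and do not mark a response as particular to HL60. In all 4 lines, 75 of the 1802 higher HL60 genes passed it upward and 40 of the 1962 lower ones downward, counts that have no baseline either. Genes at or under the limit on both arrays are included in these counts.

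**Figure D5:**
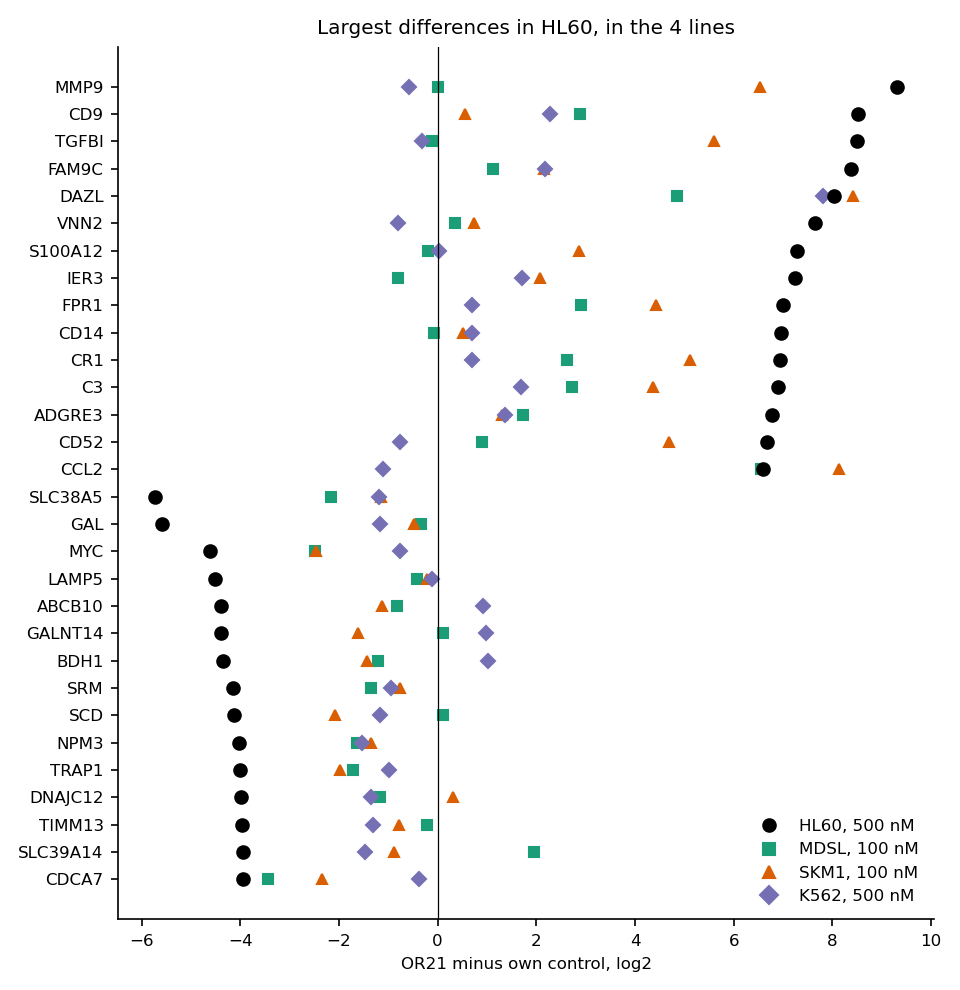
Difference between OR21-treated and own control cells (x axis, log2) in the 4 lines, 1 array per condition and with no limit applied, for the 15 largest higher and 15 largest lower differences in HL60. DAZL is far to the right in all 4 lines, MMP9 and TGFBI in HL60 and SKM1, and VNN2 and CD14 in HL60 but not in the other 3, while the lower genes lie closer to 0 in the other lines.

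Differences in the other lines are given as measured, with no limit applied. DAZL, at least 4.36 log2 higher in HL60, differed by 8.41 in SKM1, 7.80 in K562 and 4.86 in MDSL. MMP9 differed by 6.54 in SKM1, 0.00 in MDSL and -0.58 in K562, and TGFBI by 5.60, -0.12 and -0.31. VNN2 and CD14 differed by 0.35 and -0.07 in MDSL, 0.74 and 0.52 in SKM1 and -0.80 and 0.69 in K562. MMP9 and TGFBI were thus far higher in SKM1 as well, and neither was in MDSL or K562. Medians of some lists are set beside each other as deposited. Neutrophil surface genes had medians of 0.55 in MDSL, 0.70 in SKM1 and 0.32 in K562, and S100 genes 1.46, 1.60 and 0.25. Ribosome biogenesis genes had -0.97, -0.83 and -1.02, of the same sign as HL60 at less than its size. Monocyte and macrophage genes had 0.54, 0.93 and 0.05, and purine and pyrimidine synthesis genes -1.07, -0.95 and -0.42. Mitosis genes had -1.63 in MDSL and -0.96 in SKM1, both at 100 nM, and 0.18 in K562 at 500 nM, beside the HL60 values of 0.11 as deposited and -0.65 under spike scaling. Replication genes had -1.81, -1.37 and -0.10 in these lines, beside -1.19 as deposited and -1.95 under spike scaling in HL60. Interferon-stimulated genes had 1.79 in MDSL, 1.50 in SKM1 and 0.49 in K562, beside 0.84 in HL60.

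The untreated resistant derivatives share the HL60 control array with the treated cells, so like values can come from that array, and only the values are given, as measured for the derivatives. CD9 differed from control HL60 by 6.13 log2 in the AZA resistant and 6.16 in the OR21 resistant cells, TGFBI by 6.49 and 6.91, and CCL2 by 5.71 and 6.12, each beside a large difference in treated cells. S100A8 differed by 3.86 and 3.54. MMP9 differed by 0.59 and 0.34, FPR1 by -0.19 and 0.37 and DAZL by 1.17 and 0.18, where treated cells had at least 7.28, 6.99 and at least 4.36. MYC differed by -1.02 and -1.13 and SRM by -0.06 and 0.31, against -4.62 and -4.15 in treated cells. PRTN3 was lower in all of them, at -4.15 and -3.88 beside -3.30.

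Markers of cell types that do not belong to HL60 were mostly dim. On the mean of log2 levels, 19 T and natural killer cell genes were at 5.06 in control and 5.85 in treated cells, with 4 above the limit on either array, and CD3D, CD2 and CD8A were at or under it on both. The 4 were the granule proteins GNLY, at 3.49 and 9.28, NKG7, at 8.21 and 9.04, and GZMB, at 8.59 and 8.13, and the adhesion molecule NCAM1, at 8.77 and 8.51. B cell markers were above the limit in 0 of 7 genes, with means of 5.99 and 6.36, and megakaryocyte and mast cell markers in 0 of 10, with 5.33 and 5.84. Erythroid markers passed it in 1 of 13, with means of 5.07 and 5.18 and GATA1 and HBB under it on both arrays. Neural markers passed in 0 of 10, at 4.56 and 4.62. Epithelial markers had means of 5.33 and 6.49, with KRT18, a keratin, at 4.87 and 10.87 and KRT8 at 9.17 and 12.08, while EPCAM, KRT5 and KRT14 were under the limit. Fibroblast and endothelial markers had means of 5.96 and 6.41, raised by PECAM1 and ENG, which monocytes also express, while COL1A1, CDH5 and VWF were under it. The part of other cell types in the results was not tested beyond these levels. Of the HL60 markers, MPO, AZU1, PRTN3 and CTSG were high on the control array.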

How the data were processed

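RNA of 10 samples was hybridised to single-colour arrays. The deposited intensities, linear values per probe set, were taken from the series' value table. Software, background correction and normalization are not given in the sources used here, nor is the genome build of the array. The log2 of each value was taken without a pseudocount (Python 3.11.15, pandas 2.3.3, numpy 2.4.6). A platform annotation, which can be old, named 17709 probe sets with 1 symbol and 0 with several, and left 3739 gene or transcript probe sets unnamed. Of 20 genes with several probe sets, the one with the highest mean was kept. Genes of chromosome Y and XIST were left out of the figures and kept in the counts. Per-sample columns of no sample numbered 0.

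With 1 array per condition no test was possible. Called means at least 2-fold (1 log2 unit). The limit of negative controls, the CG thresholds of 5 and 20, the promoters shown and the grouping of lists for CG counts were chosen after the values were seen. So were centring on positive controls and a floor at the limit. The members and the 67 gene lists were chosen with earlier results of these data known. Named genes were the 15 largest differences each way among genes at or above an array's median, the largest members of each list, whole small families, and a fixed set with MPO, MYC, CDA and DNMT1. Another 32 genes, mostly defining members of a list, were added after their values were seen. Promoters came from RefSeq, and the first window of a gene was used. The steps were tested on simulated data. Array intensities have no depth, and precision is limited by the number of arrays.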

Additional observations from a re-analysis of the deposited data

Results flagged for a closer look

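Among the 15 largest differences each way and the fixed set of named genes, for 5 genes the difference in HL60 and that in another line were both at least 2-fold as measured and opposite in sign, which was not tested and rests on 1 array per condition. Among the 1802 higher and 1962 lower genes of HL60, out of 17687, such opposite pairs numbered 89 with MDSL, 38 with SKM1 and 116 with K562. Pairs of the same direction numbered 451 higher and 331 lower with MDSL, 690 and 380 with SKM1, and 288 and 288 with K562. Dim genes are included in these counts. CCL2 was higher in HL60 by 6.59 log2 and differed by -1.10 in K562. BDH1, a mitochondrial enzyme of ketone metabolism, was at least 2.20 lower in HL60 and differed by 1.02 in K562. SLC39A14, a metal transporter, was at 8.58 and 4.64 in HL60, a difference of only -0.14 when the treated value is set to the limit, and differed by 1.95 in MDSL. DNMT3B was under the limit of negative controls on both HL60 arrays, at 4.45 and 5.79, so its HL60 direction is not established, and differed by -1.02 in K562. MPO differed by -1.04 in HL60 and 4.49 in MDSL.

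Probe sets outside the named genes were counted too. Of the 3739 unnamed gene or transcript probe sets, 52 passed from at or under the limit to above it and were at least 2-fold higher with OR21. Among the 17687 named genes 393 did so (2.22%). At 2-fold, 8.05% of unnamed sets were higher and 8.1% lower, against 10.2% and 11.1% of named genes and 13.6% and 11.9% of negative control sets. The largest difference of an unnamed set was 7.17 log2. Among the negative control probe sets, the largest difference was 11.93 log2, from 2.25 to 14.17, in a set that differed by 6.43 in the AZA resistant cells, -1.45 in K562, -2.82 in SKM1 and -4.62 in MDSL. The next largest difference was 6.56, and 8 negative sets were at least 16-fold higher. Single large differences were thus present among negative controls too.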

How the results depend on the processing

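The counts of 1802 higher and 1962 lower genes were within 1.5 times these values under quantile normalization, median centring, a floor at background probes, dim genes left out and the mean of a gene's probe sets. They were 796 and 6721 when arrays were scaled to hybridisation spikes and 654 and 431 at 4-fold. With alternatives added after seeing the data they were 3268 and 1042 when centred on positive controls, and 855 and 1268 with a floor at the higher of both negative control limits. The scalings add 1 constant to every gene, except quantile normalization, and so leave gaps between list medians as they are. Of the 589 named genes, 363 were called, and none of these changed sign under an alternative. Under the constant scalings none could, because each shift was smaller than the 1 log2 unit of a call. Kept signs are thus no check of the calls. With the floor at the limit 318 kept their sign and the others became 0, since both arrays were at the floor. Spike scaling left 319 of the 363 called in the same direction and positive control centring 332. Of 23 list medians past 2-fold, 13 stayed past it under spike scaling, 19 under positive control centring and 17 with the floor at the limit, where 19 kept their sign. The floor at the limit moved 153 of the 589, and the floor at background probes 23, by more than a scaled median absolute deviation of negative control probe sets (0.81 log2). This deviation is a spread of dim probe sets between the 2 arrays, and it does not measure variation between cultures. Leaving out dim genes moved 15 list medians by more than this deviation, and the floor at the limit 7. No paired analysis was possible because each group had 1 array. Precision is limited by the number of arrays and, for dim genes, by signal over background: 10268 genes were at or under the limit on both arrays.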

Other observations

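Imprinted genes, which are read from 1 parental copy and carry methylation marks from the germ line, were mostly dim, with 4 of 19 above the limit on either array and a median of 0.35 log2 that spike scaling turned to -0.41. MEST, an imprinted hydrolase gene, went from 9.56 to 7.78, at least 1.12 lower, and NNAT from 7.02 to 8.60, at least 0.63 higher. The treated level of NNAT lay close to the treated limit of 8.44. Amino acid transporters split by gene. SLC43A1, a carrier of large neutral amino acids, was at 11.74 and 8.49, a difference of -3.25, and SLC7A5 and SLC1A5 differed by -1.74 and -1.81. SLC6A6, the taurine transporter, was 2.14 higher.

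Reference genes commonly used for scaling did not hold still together. Of 12 such genes, 4 were at least 2-fold lower and 0 higher, with a median of -0.38 log2 that turned to 0.04 with positive control centring. HPRT1 differed by -1.60 and TBP by -1.29, while GAPDH was at 17.45 and 17.24 and ACTB at 13.10 and 13.22.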
